A study of Homo sapiens with 18 samples.

Results

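NPTX2, TNFRSF10D, OXCT1, MAP7D2, TGFBR2, CRABP2, IGF2 and G0S2 are 8 of the 60675 human genes counted in 3 HEK293T lines, and they were chosen by their total RNA levels, which differed widely between the lines. The rule named the genes and set no threshold. Among the 16087 tested genes with a mean log2 CPM (counts scaled to the size of the library) of at least 1, ordered by their largest total RNA difference between any pair of lines, MAP7D2 was at place 1 and TNFRSF10D at place 2. OXCT1 was at place 17, G0S2 at 18, TGFBR2 at 20, CRABP2 at 22, NPTX2 at 25 and IGF2 at 36, so other genes with differences as large are not among them. Total RNA values are therefore given below as a description with no test. Differences between lines were tested in polysome RNA, whose libraries the choice did not use. Same-numbered total and polysome libraries deviated together, so these tests are not independent of the choice, and a polysome difference in the direction of the total RNA is no separate support for it.

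The 8 genes belong to unrelated pathways. NPTX2 is a secreted neuronal pentraxin that clusters AMPA glutamate receptors at synapses, and TNFRSF10D is a decoy receptor that binds the death ligand TRAIL without passing on a complete death signal. OXCT1 is the mitochondrial enzyme that activates ketone bodies for use as fuel, and MAP7D2 is a microtubule-binding protein that recruits kinesin-1. TGFBR2 is the type II receptor that binds TGF-beta and activates the type I receptor, CRABP2 carries retinoic acid to its nuclear receptors, IGF2 is a growth factor of fetal tissue from an imprinted gene, and G0S2 inhibits adipose triglyceride lipase and thereby lipolysis.

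The study used HEK293T, an established human embryonic kidney cell line, carrying YTHDF1, YTHDF2 or YTHDF3 fused to ADAR. YTHDF proteins bind RNA methylated at adenosine (m6A), and the fused deaminase edits adenosines near the bound site, so that edited transcripts mark binding. All groups shared induction with 1 µg/mL doxycycline for 24 h and 100 µg/mL cycloheximide for 10 min, which holds ribosomes on the RNA, and no library without a fusion was analysed here. From each line (YTHDF1-ADAR, YTHDF2-ADAR and YTHDF3-ADAR) there were 3 libraries of total RNA and 3 of polysome RNA, the pooled fractions of a sucrose gradient with more than 2 ribosomes. The labels do not say whether a line is 1 clone or a pool, nor whether replicates are separate cultures, so p-values measure the spread between these libraries, which may be technical. Since each fusion is present in 1 line, the fusion and the history of the line cannot be told apart.

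The 18 libraries held 42699303 to 67549159 counts. In total RNA each YTHDF gene had its top mean in the line of its fusion, with YTHDF1 at 445, 358 and 372 CPM in YTHDF1-ADAR and 60.4 to 88.8 CPM in the other lines. ADARB1, the ADAR2 gene, was at 37.5 to 40.5 CPM in YTHDF2-ADAR total RNA, 237 to 268 in YTHDF1-ADAR and 1080 to 1651 in YTHDF3-ADAR, so the lines differed in this readout as well. Replicate 1 of YTHDF3-ADAR stood apart from replicates 2 and 3 in both fractions. Of 16276 genes with a mean of at least 2 CPM, 63 were at least 4-fold lower in it than in both other replicates, in total and in polysome RNA. The same count was 28 for YTHDF1-ADAR replicate 3, 31 for YTHDF2-ADAR replicate 2 and 0 for the other 6 replicates. It does not see a library that deviated in 1 fraction only. In total RNA the chi-square per degree of freedom against the other replicates was 167 and 217 for YTHDF1-ADAR replicate 1. It was 143 and 137 for YTHDF3-ADAR replicate 1. In polysome RNA these values were 19.8 and 22.3, and 131 and 127. Polysome differences, pathway counts and neighbours are also given without replicate 1, an alternative chosen after the data were seen.

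The HEK293T marker list (6 of 6 genes tested) summed to 932 to 1539 CPM in YTHDF1-ADAR, 504 to 646 CPM in YTHDF2-ADAR and 372 to 675 CPM in YTHDF3-ADAR. The sum was highest in the line where NPTX2 was highest, and its part in the NPTX2 difference was not tested. NEFM and NEFL made up most of it there, at 495 to 1099 and 257 to 363 CPM. PAX2 and LHX1 went the other way, at 3.3 to 4.13 and 1.795 to 2.61 CPM in YTHDF1-ADAR. In YTHDF3-ADAR they were at 5.32 to 9.60 and 3.17 to 5.53 CPM. INA and LIN28B reached their highest values outside YTHDF1-ADAR. The 5 fibroblast markers summed to 5.16 to 10.2 CPM in YTHDF1-ADAR and YTHDF2-ADAR and to 17.3 to 35.9 CPM in YTHDF3-ADAR. COL1A1 made up most of this sum, at 16.8 to 34.5 CPM in YTHDF3-ADAR, while DCN stayed at or below 0.0952 CPM in every library. The 4 epithelial markers summed to between 1.15 and 2.57 CPM in the other lines and in YTHDF3-ADAR replicate 1, against 6.19 to 7.64 CPM in YTHDF3-ADAR replicates 2 and 3, with KRT5 and KRT14 at or near 0. The epithelial sum was highest in the same libraries as CRABP2, IGF2 and G0S2, and the fibroblast sum was highest in replicates 2 and 3 of YTHDF3-ADAR as well. The part of either in the results was not tested. The 3 endothelial markers summed to at most 0.331 CPM and the 3 blood markers to at most 2.57 CPM. All values are from bulk RNA, in which fewer cells with a transcript and less transcript per cell cannot be told apart.

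NPTX2 (ENSG00000106236, chr7:98617285-98629869, plus strand, GRCh38) was high in YTHDF1-ADAR. In total RNA it was at 203, 181 and 362 CPM in replicates 1 to 3 of YTHDF1-ADAR, at 23.6, 23.2 and 23.3 CPM in YTHDF2-ADAR, and at 21.8, 32.7 and 30.0 CPM in YTHDF3-ADAR. In polysome RNA the values were 266, 229 and 485 CPM in YTHDF1-ADAR, 29.1, 30.6 and 32.8 CPM in YTHDF2-ADAR, and 32.8, 37.4 and 31.5 CPM in YTHDF3-ADAR. Every YTHDF1-ADAR library was above every library of the other lines, replicate 3 of YTHDF1-ADAR was the highest in both fractions, and YTHDF2-ADAR and YTHDF3-ADAR overlapped. In polysome RNA NPTX2 was 10.6-fold lower in YTHDF2-ADAR than in YTHDF1-ADAR (log2 difference -3.40 ± 0.28 SE, adjusted p = 3.53e-06, edgeR quasi-likelihood test with Benjamini-Hochberg adjustment over all genes, 3 libraries a group). It was 9.63-fold lower in YTHDF3-ADAR (-3.27 ± 0.28, edgeR adjusted p = 3.36e-06), and the difference between YTHDF3-ADAR and YTHDF2-ADAR was 0.14 ± 0.26 (adjusted p = 0.729). Leaving out YTHDF3-ADAR replicate 1, these values were -3.24 ± 0.37 and 0.17 ± 0.32 (edgeR adjusted p = 2.7e-05 and 0.689).

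TNFRSF10D (ENSG00000173530, chr8:23135588-23164027, minus strand) was nearly undetected in YTHDF2-ADAR. Total RNA held 8.44, 8.11 and 11.8 CPM in YTHDF1-ADAR, 0.24, 0.269 and 0.0943 CPM in YTHDF2-ADAR (8, 14 and 4 counts), and 10.4, 6.09 and 6.13 CPM in YTHDF3-ADAR. Polysome RNA held 10.6, 9.06 and 14.5 CPM in YTHDF1-ADAR, 0.158, 0.132 and 0.175 CPM in YTHDF2-ADAR (9, 10 and 9 counts), and 14.6, 7.55 and 7.43 CPM in YTHDF3-ADAR. The YTHDF2-ADAR libraries were all below the rest, YTHDF1-ADAR and YTHDF3-ADAR overlapped, and within YTHDF3-ADAR replicate 1 was the high one. On polysomes the gene was 73.4-fold lower in YTHDF2-ADAR than in YTHDF1-ADAR (log2 -6.20 ± 0.40, edgeR adjusted p = 2.11e-07) and 63.4-fold higher in YTHDF3-ADAR than in YTHDF2-ADAR (5.99 ± 0.40, adjusted p = 1.91e-07). The difference between YTHDF3-ADAR and YTHDF1-ADAR was -0.21 ± 0.28 (adjusted p = 0.616) with all libraries and -0.60 ± 0.19 (edgeR adjusted p = 0.0164) without YTHDF3-ADAR replicate 1. Against YTHDF2-ADAR it was 5.61 ± 0.27 without that replicate.

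OXCT1 (ENSG00000083720, chr5:41730065-41870425, minus strand) was also low in YTHDF2-ADAR. Its total RNA was at 14.5, 11.5 and 12.1 CPM in YTHDF1-ADAR, 1.47, 0.653 and 0.966 CPM in YTHDF2-ADAR, and 13.1, 15.0 and 15.8 CPM in YTHDF3-ADAR. Its polysome RNA was at 16.1, 13.5 and 15.2 CPM, 1.21, 0.844 and 1.48 CPM, and 15.8, 21.8 and 19.2 CPM in those lines. YTHDF2-ADAR was below both other lines in every library, and the other lines overlapped. On polysomes OXCT1 was 12.8-fold lower in YTHDF2-ADAR than in YTHDF1-ADAR (log2 -3.68 ± 0.24, edgeR adjusted p = 2.11e-07) and 16.2-fold higher in YTHDF3-ADAR than in YTHDF2-ADAR (4.02 ± 0.24, adjusted p = 5.33e-08). YTHDF3-ADAR minus YTHDF1-ADAR was 0.34 ± 0.20 (adjusted p = 0.234). The differences without YTHDF3-ADAR replicate 1 were 4.16 ± 0.22 from YTHDF2-ADAR and 0.46 ± 0.19 from YTHDF1-ADAR (edgeR adjusted p = 1.47e-09 and 0.0525). Over the 18 libraries the log2 CPM of OXCT1 and TNFRSF10D had a Pearson r of 0.969, a value that rests on the 3 lines and on paired fractions of the same cells.

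MAP7D2 (ENSG00000184368, chrX:20006713-20116907, minus strand) differed between all 3 lines. Total RNA was at 1.32, 1.47 and 1.14 CPM in YTHDF1-ADAR, 0.359, 0.307 and 0.495 CPM in YTHDF2-ADAR, and 17.05, 25.5 and 24.4 CPM in YTHDF3-ADAR. Polysome RNA was at 1.32, 1.14 and 1.25 CPM, 0.403, 0.264 and 0.331 CPM, and 16.7, 24.5 and 23.9 CPM. No line overlapped another in either fraction, and replicate 1 of YTHDF3-ADAR was the lowest of its line but 12.7-fold above the highest polysome library of the other lines. The polysome difference was 4.13 ± 0.21 on the log2 scale between YTHDF3-ADAR and YTHDF1-ADAR (17.6-fold higher, edgeR adjusted p = 6.25e-09) and 6.04 ± 0.24 between YTHDF3-ADAR and YTHDF2-ADAR (65.7-fold higher, adjusted p = 2.52e-10). YTHDF2-ADAR was 3.74-fold below YTHDF1-ADAR (-1.90 ± 0.24, edgeR adjusted p = 0.00024). The first 2 differences were 4.29 ± 0.13 and 6.22 ± 0.16 without YTHDF3-ADAR replicate 1.

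TGFBR2 (ENSG00000163513, chr3:30606601-30694142, plus strand) was high in all 3 replicates of YTHDF3-ADAR. Total RNA was at 1.02, 0.967 and 0.679 CPM in YTHDF1-ADAR, 1.20, 1.08 and 0.896 CPM in YTHDF2-ADAR, and 8.55, 13.0 and 12.8 CPM in YTHDF3-ADAR. Polysome RNA was at 0.900, 0.818 and 0.972 CPM, 1.30, 1.45 and 1.42 CPM, and 11.03, 15.7 and 13.2 CPM. YTHDF3-ADAR was above both other lines in every library, and YTHDF1-ADAR and YTHDF2-ADAR overlapped in total RNA but not in polysome RNA. On polysomes TGFBR2 was 14.8-fold higher in YTHDF3-ADAR than in YTHDF1-ADAR (log2 3.89 ± 0.21, edgeR adjusted p = 6.59e-09) and 9.56-fold higher than in YTHDF2-ADAR (3.26 ± 0.20, adjusted p = 7.27e-08). These were 4.02 ± 0.15 and 3.39 ± 0.14 without YTHDF3-ADAR replicate 1. The value for YTHDF2-ADAR minus YTHDF1-ADAR was 0.63 ± 0.20 (adjusted p = 0.151), and it passed the threshold when the fit held only those polysome libraries (edgeR adjusted p = 0.0278).

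CRABP2 (ENSG00000143320, chr1:156699606-156705816, minus strand) was high in replicates 2 and 3 of YTHDF3-ADAR and much lower in replicate 1. Total RNA was at 4.48, 4.15 and 4.41 CPM in YTHDF1-ADAR, 5.45, 4.67 and 4.48 CPM in YTHDF2-ADAR, and 9.96, 71.6 and 73.0 CPM in YTHDF3-ADAR. Polysome RNA was at 3.91, 4.18 and 4.12 CPM, 4.28, 4.53 and 4.90 CPM, and 13.8, 87.6 and 76.4 CPM. Replicate 1 of YTHDF3-ADAR was 1.83-fold above the highest library of the other lines in total RNA and 2.82-fold above it in polysome RNA, while replicate 2 was 7.20-fold and 6.33-fold above replicate 1. The line's mean of 59.3 ± 39.8 CPM on polysomes (SD, n = 3) lies between the values of replicate 1 and of the other replicates.

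G0S2 (ENSG00000123689, chr1:209675412-209676390, plus strand) had the same split. It was at 1.80, 1.47 and 1.21 CPM in YTHDF1-ADAR total RNA, 1.11, 0.806 and 1.04 CPM in YTHDF2-ADAR, and 1.95, 17.4 and 19.6 CPM in YTHDF3-ADAR. On polysomes it was at 1.5, 1.87 and 1.19 CPM, 1.63, 1.42 and 1.46 CPM, and 2.01, 21.8 and 22.1 CPM. Replicate 1 of YTHDF3-ADAR exceeded the highest library of the other lines by only 1.08-fold in each fraction, and replicates 2 and 3 stood 8.93-fold to 10.97-fold above replicate 1. CRABP2 and G0S2 had a Pearson r of 0.968 over the 18 libraries.

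IGF2 (ENSG00000167244, chr11:2129112-2141238, minus strand) was the gene of the 8 that was lower on polysomes than in total RNA in every replicate pair. Total RNA was at 3.91, 4.11 and 7.11 CPM in YTHDF1-ADAR, 7.46, 10.2 and 10.8 CPM in YTHDF2-ADAR, and 6.69, 67.2 and 48.9 CPM in YTHDF3-ADAR. Polysome RNA was at 1.93, 2.02 and 3.02 CPM, 3.30, 4.33 and 5.49 CPM, and 4.59, 19.6 and 23.9 CPM. Replicate 1 of YTHDF3-ADAR lay within the range of the other lines in both fractions, whereas replicates 2 and 3 were above every other library of their fraction. The deposited annotation places IGF2 on the same strand as ENSG00000284779, INS-IGF2 and ENSG00000240801, which share its bases, and opposite IGF2-AS, so the share of reads that belongs to IGF2 itself is uncertain.

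CRABP2, G0S2 and IGF2 were therefore not at 1 level within YTHDF3-ADAR. Replicate 1 lay within the range of the other lines for IGF2, just above it for G0S2 and further above it for CRABP2, and in each case far below replicates 2 and 3. All 3 still passed the polysome test with every library, in the order CRABP2, G0S2 and IGF2 at 14.6-fold (log2 3.87 ± 0.63, edgeR adjusted p = 0.000862), 10.05-fold (3.33 ± 0.74, adjusted p = 0.00586) and 6.93-fold (2.79 ± 0.65, adjusted p = 0.00766) above YTHDF1-ADAR. Against YTHDF2-ADAR the log2 differences were 3.70 ± 0.63 for CRABP2 (edgeR adjusted p = 0.00116), 3.35 ± 0.74 for G0S2 (adjusted p = 0.00561) and 1.88 ± 0.62 for IGF2 (adjusted p = 0.0381). Without replicate 1 of YTHDF3-ADAR the differences from YTHDF1-ADAR were 4.34 ± 0.10, 3.85 ± 0.16 and 3.24 ± 0.29, and those from YTHDF2-ADAR were 4.18 ± 0.10, 3.88 ± 0.16 and 2.33 ± 0.28, with smaller standard errors. The call for IGF2 against YTHDF2-ADAR was lost in 7 of 13 alternatives, among them without YTHDF3-ADAR polysome replicate 2 (log2 1.71, edgeR adjusted p = 0.124), without its replicate 3 (1.48, adjusted p = 0.151) and without any 1 of the YTHDF2-ADAR polysome replicates (1.71 to 2.07, adjusted p = 0.0713 to 0.122). YTHDF2-ADAR minus YTHDF1-ADAR was 0.17 ± 0.59 for CRABP2, -0.02 ± 0.73 for G0S2 and 0.91 ± 0.64 for IGF2 (adjusted p = 0.993, 1 and 0.74).

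**Figure D1:**
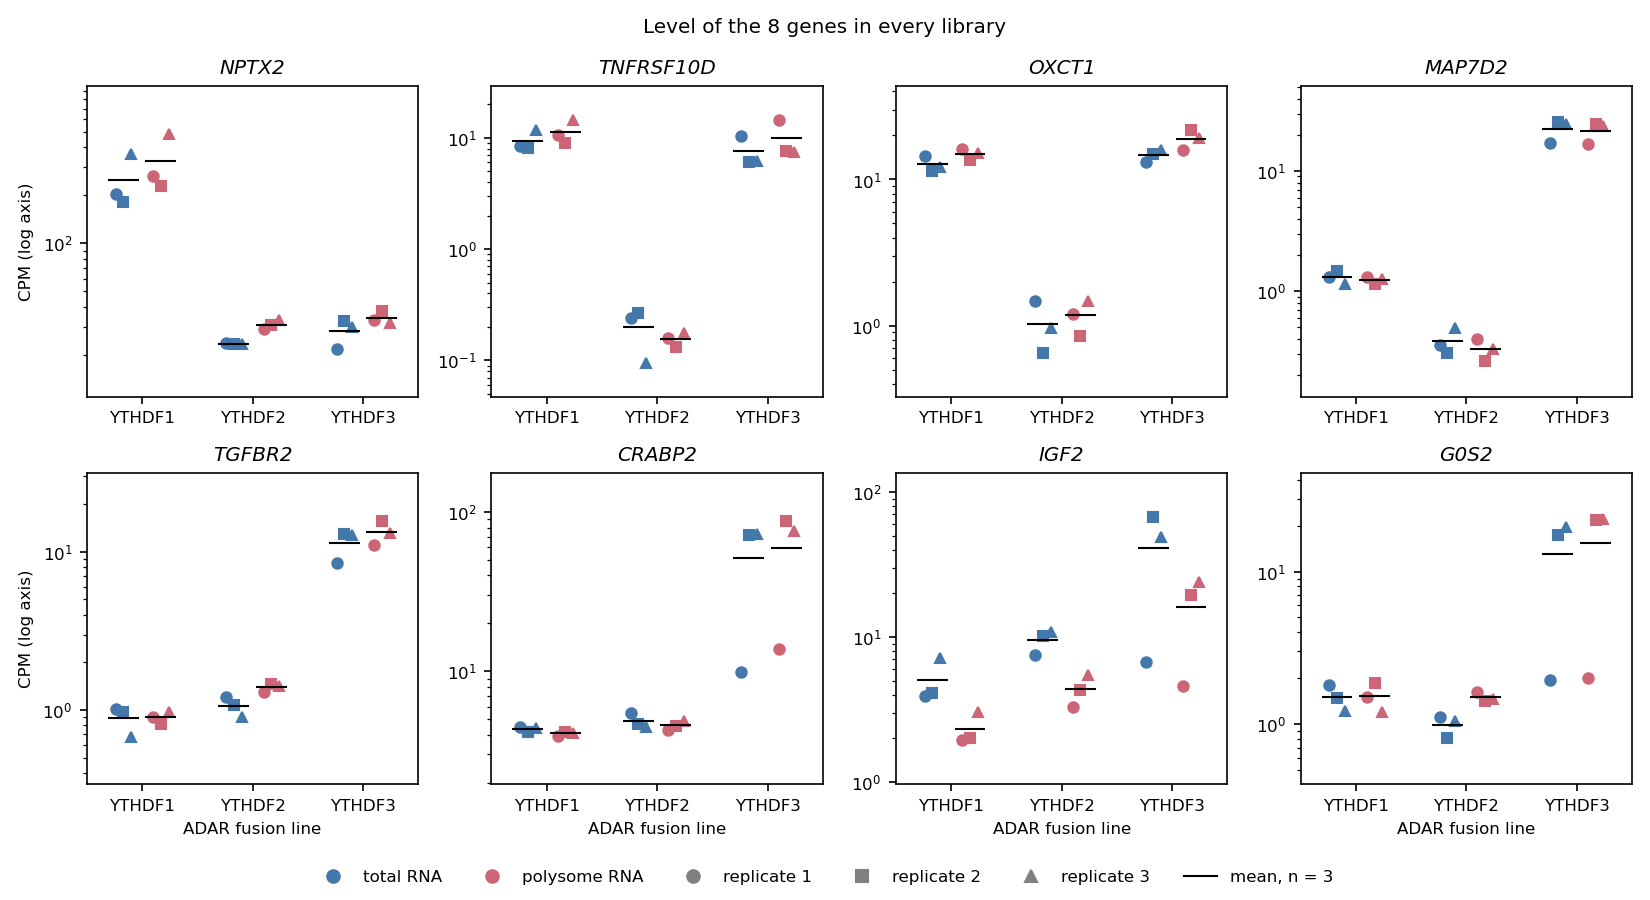
Level of each gene in CPM (log axis) in the 18 libraries, by ADAR fusion line, with total RNA in blue, polysome RNA in red, a marker shape for each replicate and a line at the mean of 3. CRABP2, IGF2 and G0S2 are low in replicate 1 of YTHDF3-ADAR (circles) and high in replicates 2 and 3, while MAP7D2 and TGFBR2 are high in all 3.

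The calls in polysome RNA were counted over the 8 genes and set beside those over all genes. In YTHDF2-ADAR minus YTHDF1-ADAR, 4 of 8 genes were called and all 4 were lower, against 2.35% of all 26804 tested genes called, 1.59% lower and 0.761% higher. In YTHDF3-ADAR minus YTHDF1-ADAR, 6 of 8 were called, 5 higher and 1 lower, against 23.3% of all genes, 11.9% higher and 11.4% lower. YTHDF3-ADAR minus YTHDF2-ADAR called 7 of 8, all higher, against 25.1% called, 13.6% higher and 11.5% lower. The median log2 difference of the 8 genes was -0.96, 3.06 and 3.52 in the 3 contrasts, and that of all genes was within 0.02 of 0 in each. Without YTHDF3-ADAR replicate 1 the share of all genes called rose to 47.6% against YTHDF1-ADAR and 49.0% against YTHDF2-ADAR. The 8 genes were chosen for total RNA differences between these same lines. Their excess of calls over these shares, and their medians, therefore follow from the choice and are no separate result. The 3 contrasts share their libraries, and all 8 genes passed the filter on low counts, which keeps a gene through the line where it is high.

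**Figure D2:**
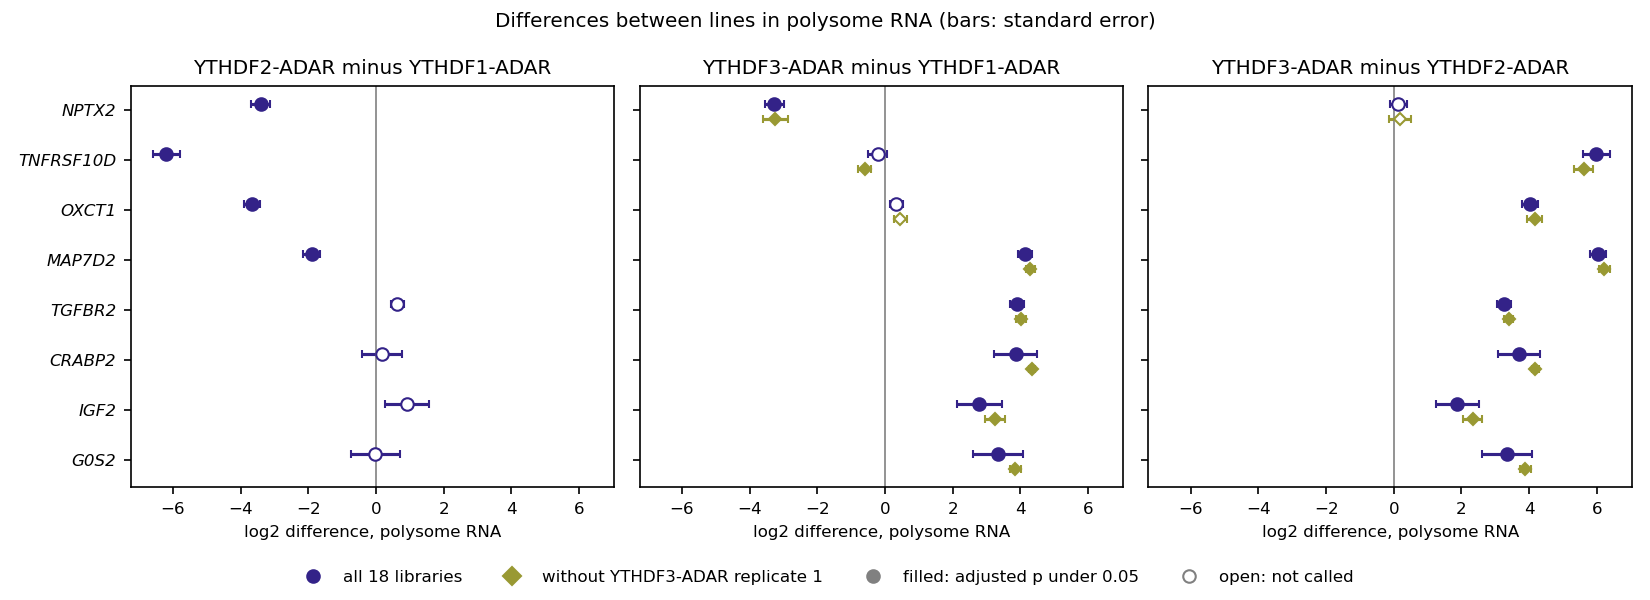
Log2 difference in polysome RNA between lines for each gene, with bars of 1 standard error, over all 18 libraries (circles) and without YTHDF3-ADAR replicate 1 (diamonds), filled where the edgeR adjusted p was under 0.05. The first panel has no diamonds because it holds no YTHDF3-ADAR library, and the bars of CRABP2, IGF2 and G0S2 are the widest with all libraries and shorten without replicate 1.

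Set on a scale per length, in CPM per kilobase of exon, NPTX2 in YTHDF1-ADAR total RNA was the most abundant of the 8 transcripts at 82.1 ± 32.6 (SD, n = 3). CRABP2 followed at 47.6 ± 33.3 in YTHDF3-ADAR, with its spread set by replicate 1. G0S2 was at 14.8 ± 10.97, IGF2 at 6.54 ± 4.96 and MAP7D2 at 5.11 ± 1.05 CPM per kilobase in YTHDF3-ADAR total RNA. OXCT1 reached 3.56 ± 0.336, TNFRSF10D 2.67 ± 0.571 and TGFBR2 1.67 ± 0.369 CPM per kilobase in the total RNA of their highest lines, so the genes with the widest fold differences were not the most abundant ones. The lowest group mean of the set was TNFRSF10D in YTHDF2-ADAR polysomes, at 0.0438 ± 0.00615 CPM per kilobase.

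Polysome RNA was next set against total RNA within each line, which asks whether the share of a transcript on polysomes differed. These contrasts use the total RNA libraries that chose the genes. In the fit over 6 groups, which does not pair same-numbered libraries, none of the 8 genes passed the test in any line. Of all genes 21.2% passed in YTHDF1-ADAR, 15.8% in YTHDF2-ADAR and 20.1% in YTHDF3-ADAR. The fit with pairs, described below, called 2, 3 and 5 of the 8 in these lines, and more of all genes. The widest difference was that of IGF2, whose log2 polysome minus total difference was -1.12 ± 0.65 in YTHDF1-ADAR, -1.12 ± 0.62 in YTHDF2-ADAR and -1.35 ± 0.60 in YTHDF3-ADAR (edgeR adjusted p = 0.239, 0.254 and 0.129). Its 9 replicate pairs ranged from -1.78 to -0.54. Without YTHDF3-ADAR replicate 1 IGF2 passed in that line (-1.34 ± 0.30, edgeR adjusted p = 0.00544), as did 29.9% of all genes, and the other 7 genes did not. NPTX2 was higher on polysomes in all 9 pairs, by 0.07 to 0.59 on the log2 scale, and MAP7D2 in YTHDF3-ADAR was level, at -0.03, -0.06 and -0.03.

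Same-numbered total and polysome libraries deviated together, and a fit with each same-numbered pair within a line as a block gave other calls. With that replicate block IGF2 was lower on polysomes in all 3 lines, by -1.10 ± 0.21, -1.13 ± 0.19 and -1.16 ± 0.18 (edgeR adjusted p = 0.00347, 0.00244 and 0.00148). NPTX2 was higher by 0.38 ± 0.09, 0.40 ± 0.09 and 0.28 ± 0.09 (adjusted p = 0.00508, 0.00559 and 0.0305). G0S2 was higher in YTHDF2-ADAR by 0.63 ± 0.15 (edgeR adjusted p = 0.00718). In YTHDF3-ADAR the block also called TNFRSF10D, OXCT1 and CRABP2 higher, by 0.36 ± 0.11, 0.37 ± 0.11 and 0.27 ± 0.10 (adjusted p = 0.0251, 0.0174 and 0.0431). The blocked fit called 9843, 8158 and 9030 of all genes in the 3 lines, against 5674, 4223 and 5392 without the block. In the fit without the block, the median gene was at 0.0334, 0.0347 and -0.0529 on the log2 scale in the 3 lines. Without normalization factors it was at 0.462, 0.396 and 0.253. The size of every polysome minus total value, positive or negative, therefore depends on the scaling, which is trimmed mean of M-values (TMM) here.

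The polysome minus total difference was also compared between lines with an interaction term, which contains the total RNA differences by which the genes were chosen. Under edgeR 0 genes (0%) passed in each of the 3 contrasts, and DESeq2 passed 0, 1 and 0. At an unadjusted p under 0.05 edgeR had 166, 877 and 801 genes. None of the 8 genes was among those, and their lowest unadjusted p was 0.217. For IGF2 the value was -0.22 ± 0.88 in YTHDF3-ADAR minus YTHDF1-ADAR, and for TNFRSF10D it was 0.78 ± 0.62 in YTHDF3-ADAR minus YTHDF2-ADAR, where few counts stand behind the YTHDF2-ADAR value. Standard errors of the 8 genes were 0.27 to 1.08 on the log2 scale, and 0.13 to 0.351 with the replicate block, where none of the 8 was called either (lowest edgeR adjusted p = 0.636). Without YTHDF3-ADAR replicate 1 the interaction called 265 and 288 genes, 0.97% and 1.05% of those tested, in the contrasts with YTHDF3-ADAR, and none of the 8 (lowest adjusted p = 0.278).

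**Figure D3:**
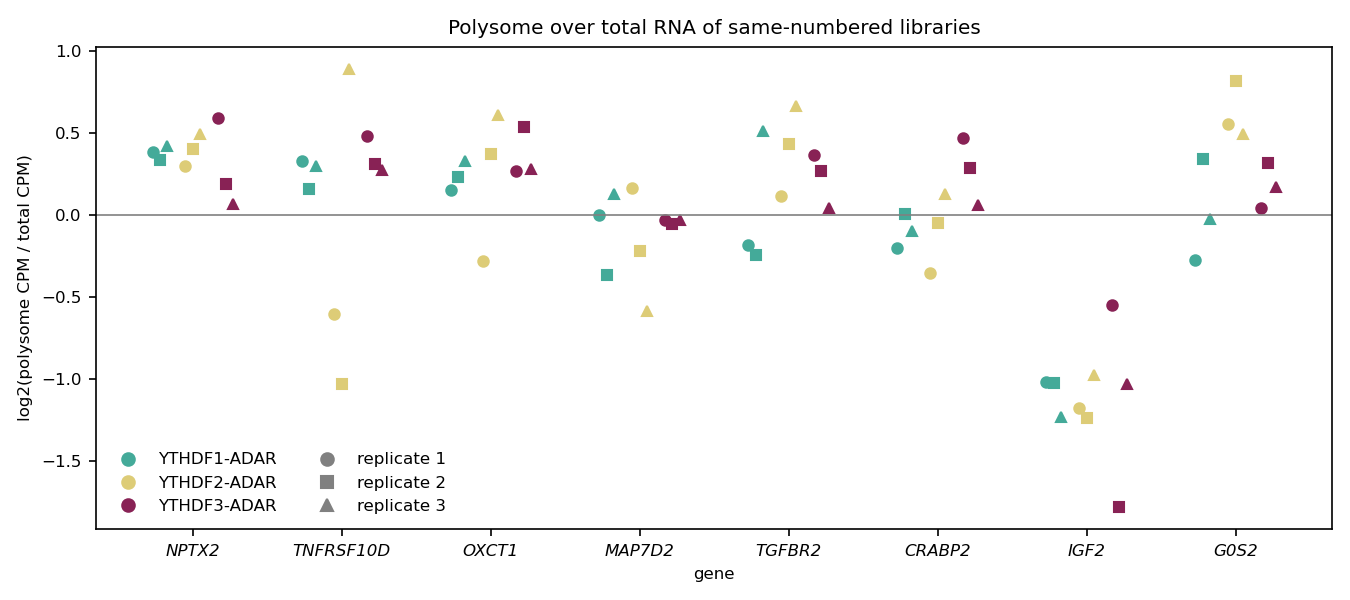
Log2 ratio of polysome to total CPM for each gene in each same-numbered pair of libraries, with colour for the line and marker shape for the replicate. All 9 IGF2 pairs lie below 0 and all 9 NPTX2 pairs above it, while TNFRSF10D in YTHDF2-ADAR spreads from -1.03 to 0.89.

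The chromosomal neighbourhood was described through the 3 nearest tested protein-coding genes on each side of each gene. In YTHDF2-ADAR minus YTHDF1-ADAR polysome RNA none of the 48 neighbours was called, beside the 2.35% of all genes, protein-coding or not. Around NPTX2 the neighbours lay between -0.64 and 0.37 on the log2 scale, and around TNFRSF10D between -0.43 and 0.18. Around OXCT1 they lay between -0.23 and 0.11 and around MAP7D2 between -0.48 and 0.20. Each of these 4 genes was further below 0 in this contrast than any of its neighbours. With 2.35% of all genes called, no call among 48 neighbours is near that share. It does not show whether smaller decreases were shared. TNFRSF10C and TNFRSF10B, which encode another TRAIL decoy receptor and a TRAIL death receptor beside TNFRSF10D, differed by 0.18 and -0.12 (edgeR adjusted p = 0.962 and 0.825).

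In the contrasts with YTHDF3-ADAR, 21 and 19 of the 48 neighbours were called, beside 23.3% and 25.1% of all genes. The neighbours are all protein-coding, but only 15675 of the 26804 tested genes behind these shares are. The shares are thus no matched background, and an excess of calls around the 8 genes was not tested. These counts include ENSG00000284779 and INS-IGF2, which overlap IGF2 on its strand and may share its reads. Of the 46 other neighbours 19 and 17 were called with all libraries, and 32 and 32 without YTHDF3-ADAR replicate 1, where 47.6% and 49.0% of all genes were. Beside TGFBR2, RBMS3, which encodes an RNA-binding protein, was higher in YTHDF3-ADAR than in YTHDF1-ADAR by 4.46 and than in YTHDF2-ADAR by 6.98 on the log2 scale (edgeR adjusted p = 8.66e-06 and 7.61e-07). ENSG00000283563, which overlaps RBMS3 on the same strand and may share its reads, was higher by 2.71 and 4.09 (edgeR adjusted p = 0.000313 and 2.28e-05). On the other side of TGFBR2, STT3B was at 0.06 and 0.16. GPD1L was higher by 0.55 and 0.61 (edgeR adjusted p = 0.0146 and 0.0083). OSBPL10 was at 0.71 and 0.81 and was not called. Without YTHDF3-ADAR replicate 1 it was higher than in YTHDF1-ADAR by 0.99 (edgeR adjusted p = 5.86e-05). Beside CRABP2, NES, the intermediate filament nestin, was higher by 1.66 and 2.58 (edgeR adjusted p = 0.0151 and 0.00174) and HAPLN2 by 2.59 and 2.95 (adjusted p = 0.0119 and 0.00661). The differences without YTHDF3-ADAR replicate 1 were 4.79 and 7.32 for RBMS3, 2.09 and 3.03 for NES and 3.08 and 3.46 for HAPLN2. TRAF3IP3 beside G0S2 was at 0.38 and 0.48 and was not called, but was called without that replicate, at 0.52 and 0.63 (edgeR adjusted p = 0.00419 and 0.000892). With all libraries MAP7D2 had no neighbour above 0.553, although it had the largest difference of the 8 genes in these contrasts. EIF1AX beside MAP7D2 was lower by 0.59 and 0.57. SH3KBP1, also beside MAP7D2, was higher than in YTHDF1-ADAR by 0.7 without YTHDF3-ADAR replicate 1 (edgeR adjusted p = 1.42e-06).

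**Figure D4:**
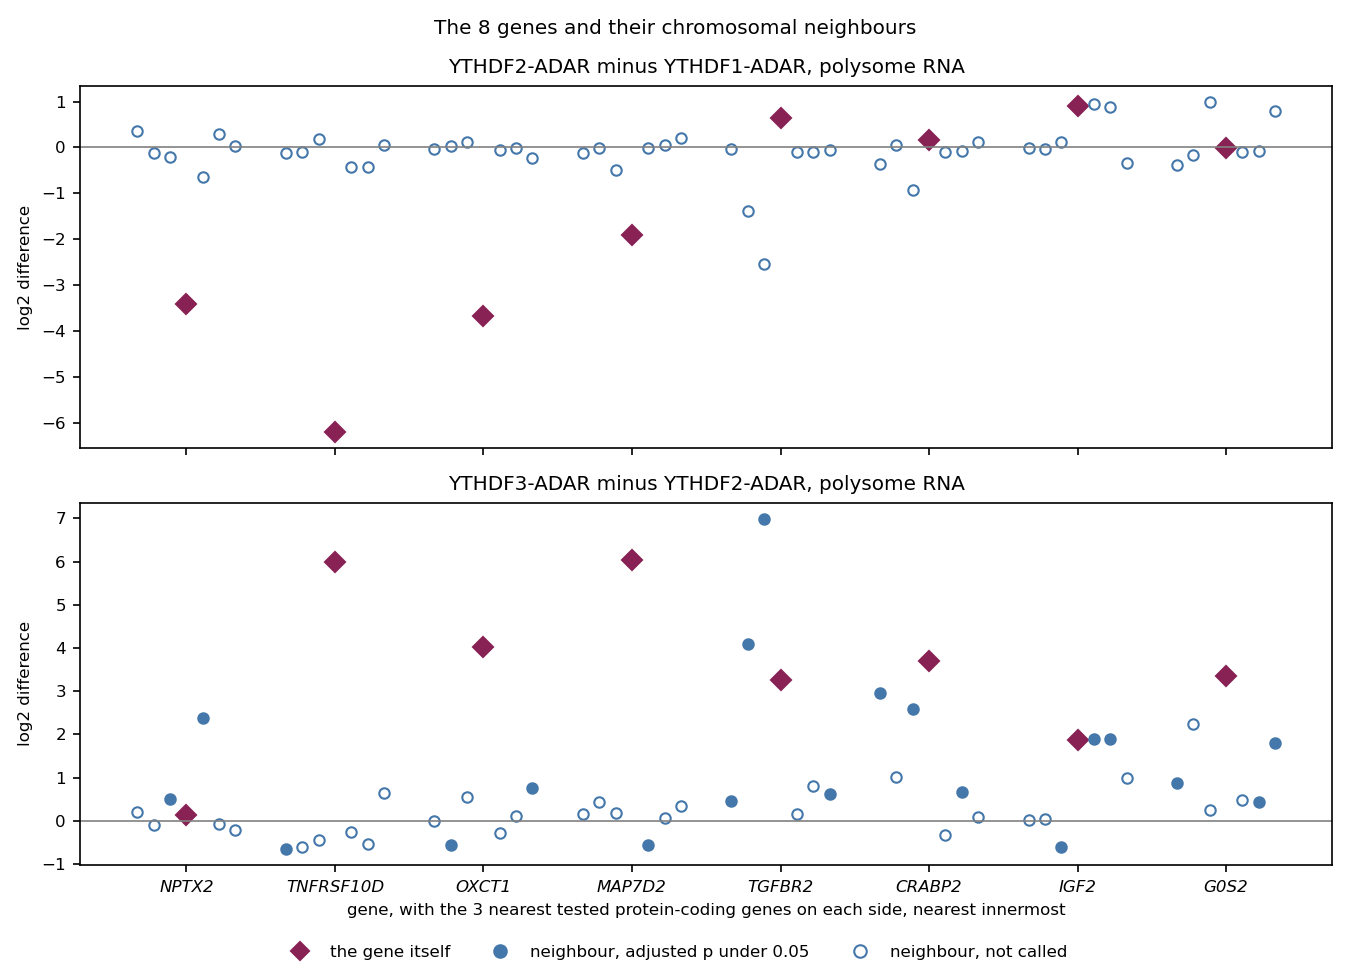
Log2 difference in polysome RNA for each gene (diamonds) and its 3 nearest tested protein-coding genes on each side (circles, nearest innermost, filled where the edgeR adjusted p was under 0.05), for 2 of the contrasts between lines. NPTX2, TNFRSF10D, OXCT1 and MAP7D2 stand away from their neighbours in the upper panel, and RBMS3 reaches 6.98 beside TGFBR2 in the lower panel.

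CRABP2 and G0S2 moved together over the libraries, and MAP7D2 had the largest total RNA difference of the 8 genes, so the bases before their start sites are shown, from RefSeq on GRCh38.p14. The lines run 5′ to 3′ on the strand of the gene, and capitals mark CG dinucleotides, the sites of DNA methylation. Of CRABP2 only the bases outside the gene as the deposited annotation places it are printed (chr1:156705817-156706034, minus strand). The windows of G0S2 (chr1:209675162-209675411, plus strand) and MAP7D2 (chrX:20116908-20117157, minus strand) hold 250 bases.
CRABP2: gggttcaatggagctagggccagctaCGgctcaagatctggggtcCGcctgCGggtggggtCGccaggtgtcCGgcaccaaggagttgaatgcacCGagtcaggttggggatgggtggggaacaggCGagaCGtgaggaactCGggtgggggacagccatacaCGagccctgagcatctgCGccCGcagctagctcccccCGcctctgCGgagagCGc
G0S2: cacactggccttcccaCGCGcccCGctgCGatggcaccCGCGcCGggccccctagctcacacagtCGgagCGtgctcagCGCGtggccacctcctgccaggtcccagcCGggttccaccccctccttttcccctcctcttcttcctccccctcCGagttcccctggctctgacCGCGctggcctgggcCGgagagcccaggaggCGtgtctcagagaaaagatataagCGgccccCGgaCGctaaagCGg
MAP7D2: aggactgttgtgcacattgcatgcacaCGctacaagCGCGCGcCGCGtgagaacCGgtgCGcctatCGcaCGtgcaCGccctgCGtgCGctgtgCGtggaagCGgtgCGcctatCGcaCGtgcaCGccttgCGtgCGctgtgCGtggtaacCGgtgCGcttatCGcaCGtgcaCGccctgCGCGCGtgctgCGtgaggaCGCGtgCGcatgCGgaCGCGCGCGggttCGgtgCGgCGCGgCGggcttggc
Over 250 bases before the start, CRABP2 had 18 CG dinucleotides, G0S2 21 and MAP7D2 44, beside a median of 11 over 35116 such windows of 27305 genes. Of all windows, 99.2% held fewer than the printed MAP7D2 window, and 84.1% held fewer than a second MAP7D2 window, which had 28. NPTX2 had 34, and OXCT1 had 25 and TGFBR2 12 in the windows at their annotated starts. Second windows of OXCT1 and TGFBR2 held 2 and 7. The 6 matched genes therefore spanned a wide range. None of the 9 windows of the 6 genes held TATAAA on either strand, a motif in 10.7% of all windows, and no match says only that these letters are not in this window. IGF2 and TNFRSF10D are named only. The libraries analysed here hold no measure of DNA methylation.

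Editing of the 8 transcripts was available as 1 value per gene and line in the authors' deposited table, with no replicates, no positions of sites used here and no test of the difference between lines. A score there never exceeds the number of sites of a gene and was read as editing summed over them, and it was divided here by the number of sites. TNFRSF10D, TGFBR2, CRABP2 and IGF2 were not listed for any line. Among tested protein-coding genes, 43.5% were listed for YTHDF1-ADAR, 28.8% for YTHDF2-ADAR and 44.5% for YTHDF3-ADAR. CRABP2 and IGF2 were unlisted in YTHDF3-ADAR although 66.3% and 64.3% of protein-coding genes within 1.5-fold of their total RNA level were listed there.

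OXCT1 had the most sites of the 8 genes. In the authors' deposited table it had 8 sites in YTHDF1-ADAR, at 6.15% editing per site in total RNA and 4.21% on polysomes, and 12 sites in YTHDF3-ADAR, at 6.68% and 5.18%. It was not listed for YTHDF2-ADAR, where 124 counts over the 3 total RNA libraries stand behind it. MAP7D2 was listed for YTHDF3-ADAR alone in the authors' deposited table, with 4 sites at 7.82% in total RNA and 7.24% on polysomes, above 92.5% of the genes listed for that line in total RNA. In YTHDF1-ADAR and YTHDF2-ADAR only 158 and 49 total RNA counts were summed for it, and no listing there says nothing about binding.

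NPTX2 was listed for all 3 lines. The authors' deposited table gave it 3 sites in YTHDF1-ADAR at 1.15% in total RNA and 1.31% on polysomes, 1 site in YTHDF2-ADAR at 0.941% and 0.359%, and 8 sites in YTHDF3-ADAR at 1.26% and 0.854%. The line with its highest level was therefore not the line with its most sites. The median over all listed genes was 2.01% per site in YTHDF1-ADAR, 1.20% in YTHDF2-ADAR and 1.76% in YTHDF3-ADAR total RNA. G0S2 had 1 site in YTHDF3-ADAR in the authors' deposited table, at 1.70% in total RNA and 0.614% on polysomes. None of these 7 entries passed the authors' own comparison of polysome and total RNA, where the adjusted p in the authors' deposited table ran from 0.705 to 1. The level of ADARB1 differed between the lines in the same libraries, and its part in these values was not tested.

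Genes of the same pathways were followed in polysome RNA through lists for each of the 8 genes, leaving the 8 out. Their counts stand beside the shares of all genes given above, 11.9% higher and 11.4% lower in YTHDF3-ADAR than in YTHDF1-ADAR, 13.6% and 11.5% against YTHDF2-ADAR, and 47.6% and 49.0% in either direction without YTHDF3-ADAR replicate 1. Those shares are over all 26804 tested genes, of which 15675 were protein-coding, so they are no matched background for the lists. The counts also moved with other libraries. Genes higher than in YTHDF1-ADAR numbered 2 to 9 a list with all libraries and 1 to 5 without its polysome replicate 3, and genes higher than in YTHDF2-ADAR numbered 2 to 6 and, without its polysome replicate 2, 0 to 6.

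Among the neuronal pentraxins and AMPA receptor genes of the NPTX2 list, all 7 were tested and none was called in YTHDF2-ADAR minus YTHDF1-ADAR. In YTHDF3-ADAR 2 were higher than in YTHDF1-ADAR and 3 higher than in YTHDF2-ADAR, the same counts as without YTHDF3-ADAR replicate 1. PTX3, a secreted pentraxin of innate immunity, was higher by 1.72 ± 0.39 and 1.82 ± 0.40 (edgeR adjusted p = 0.00664 and 0.00494). NPTXR, the membrane-bound pentraxin, was higher by 0.75 and 0.64, and NPTX1 by 0.30 against YTHDF2-ADAR alone (adjusted p = 0.0275). None of the 3 was called lower in the lines where NPTX2 was low. The AMPA receptor gene GRIA2, singled out after its values were seen, held 295, 189 and 3 polysome counts in YTHDF1-ADAR, 218, 10 and 274 in YTHDF2-ADAR and 452, 375 and 237 in YTHDF3-ADAR. It was nearly absent in replicate 3 of YTHDF1-ADAR, the library where NPTX2 was highest, and in replicate 2 of YTHDF2-ADAR, and GRIA1 and GRIA3 had at most 3 polysome counts in both. The part of these libraries in the calls of the AMPA receptor genes was not tested beyond the counts above.

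Of the TRAIL list of TNFRSF10D, 9 of 11 genes were tested, and none was called in YTHDF2-ADAR minus YTHDF1-ADAR. In YTHDF3-ADAR 2 were higher and 2 lower than in YTHDF1-ADAR, and 3 higher and 1 lower than in YTHDF2-ADAR. The counts without YTHDF3-ADAR replicate 1 were 2 higher and 3 lower, and 3 higher and 2 lower. The death receptor TNFRSF10B was lower by 0.76 and 0.65 (edgeR adjusted p = 0.000141 and 0.000544), and the initiator caspase CASP10 was higher by 1.36 and 1.17 (adjusted p = 0.00596 and 0.0122). BID, which links death receptors to mitochondria, was higher than in YTHDF2-ADAR by 0.57 (adjusted p = 0.00407). TNFRSF11B, a soluble decoy receptor, held 9, 13 and 12 polysome counts in YTHDF3-ADAR and at most 1 in any library of the other lines.

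Of the ketone body list of OXCT1, 8 of 9 genes were tested, with 1 higher in YTHDF2-ADAR than in YTHDF1-ADAR, and 4 and 5 higher in YTHDF3-ADAR than in the other lines and none lower. Leaving out YTHDF3-ADAR replicate 1 gave 5 higher and 1 lower than in YTHDF1-ADAR, and 5 higher than in YTHDF2-ADAR. SLC16A7, a carrier of ketone bodies and lactate, was higher in YTHDF3-ADAR by 1.74 ± 0.35 and 2.64 ± 0.37 (edgeR adjusted p = 0.0032 and 0.000243). BDH2, a cytosolic dehydrogenase, was higher by 0.51 in both contrasts. No other gene of the list was called lower in YTHDF2-ADAR, where OXCT1 was.

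All 9 other genes of the MAP7 family and kinesin-1 list were tested, and the calls were small beside MAP7D2. MAP7, its paralog, was lower in YTHDF2-ADAR than in YTHDF1-ADAR by 0.79 ± 0.20 (edgeR adjusted p = 0.0421). In YTHDF3-ADAR 3 genes were higher than in YTHDF1-ADAR, KIF5A by 0.73, KLC4 by 0.48 and MAP7D1 by 0.42, and 2 were higher than in YTHDF2-ADAR, MAP7 by 0.57 and MAP7D1 by 0.36. KIF5A is a kinesin-1 heavy chain and KLC4 a light chain. The call for KIF5A was lost without YTHDF3-ADAR replicate 1 (0.70 ± 0.29, adjusted p = 0.0694), where the list had 2 higher calls against YTHDF1-ADAR and 3 higher and 1 lower against YTHDF2-ADAR.

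Of 20 tested genes among the 22 on the TGF-beta list, none was called in YTHDF2-ADAR minus YTHDF1-ADAR, and 3 were higher in YTHDF3-ADAR than in either other line. ACVRL1, a type I receptor, was higher by 2.695 ± 0.68 and 2.06 ± 0.65 (edgeR adjusted p = 0.011 and 0.0293), the co-receptor ENG by 1.18 and 1.02, and LTBP3, which stores latent ligand in the matrix, by 0.63 and 0.86. SMURF2, a ubiquitin ligase that limits the pathway, was lower than in YTHDF1-ADAR by 0.37 (adjusted p = 0.00838). The medians of the list were -0.06, -0.04 and -0.03, near those of all genes. Without YTHDF3-ADAR replicate 1 the list held 4 higher and 5 lower calls in each contrast with YTHDF3-ADAR, so its count of calls depended on that library.

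The retinoic acid list of CRABP2 had 16 of 18 genes tested. In YTHDF3-ADAR 7 were higher and 2 lower than in YTHDF1-ADAR, and 6 higher and 1 lower than in YTHDF2-ADAR, while YTHDF2-ADAR had 2 lower than YTHDF1-ADAR. ALDH1A1, which makes retinoic acid, was at 1.20, 3.77 and 2.67 CPM in YTHDF3-ADAR polysomes and at most 0.311 CPM in the other lines (log2 3.74 ± 0.62 and 3.65 ± 0.62, edgeR adjusted p = 0.000902 and 0.00113). STRA6, a retinol uptake receptor, was at 0.284, 1.24 and 1.27 CPM against at most 0.132 (3.51 ± 0.75 and 3.11 ± 0.72, adjusted p = 0.00454 and 0.00697). Both were lowest in replicate 1 of YTHDF3-ADAR, as CRABP2 was. ALDH1A3, at 4.18, 10.7 and 9.85 CPM, had the same shape and was higher by 1.09 and 1.78, and the nuclear receptor RXRG was higher than in YTHDF2-ADAR by 1.51. Without replicate 1 the calls were 7 higher and 4 lower against YTHDF1-ADAR and 11 higher and 4 lower against YTHDF2-ADAR.

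Of the IGF list 17 of 20 genes were tested. In YTHDF3-ADAR 9 were higher and none lower than in YTHDF1-ADAR, and 5 were higher and 2 lower than in YTHDF2-ADAR, while 1 was higher in YTHDF2-ADAR than in YTHDF1-ADAR. Among the binding proteins IGFBP6 was higher by 1.64 ± 0.44 and 2.06 ± 0.45 (edgeR adjusted p = 0.0147 and 0.00487), IGFBP3 by 1.08 and 1.10, and IGFBP5 by 1.10 against YTHDF1-ADAR. IGFBP5 stood at 28.0, 45.8 and 36.6 CPM in YTHDF3-ADAR polysomes and at 14.4 to 29.3 CPM in the other lines. IGF2-AS held 5, 21 and 24 polysome counts in YTHDF3-ADAR and 1 to 4 in the other lines, and its reads cannot be told apart from those of IGF2 where the strand setting of the counting is not stated. Without replicate 1 of YTHDF3-ADAR the calls were 12 higher and 1 lower against YTHDF1-ADAR and 10 higher and 3 lower against YTHDF2-ADAR.

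Of the lipolysis list of G0S2, 12 of 14 genes were tested and none was called in YTHDF2-ADAR minus YTHDF1-ADAR. In YTHDF3-ADAR 3 were higher than in YTHDF1-ADAR, and 4 were higher and 1 lower than in YTHDF2-ADAR. PLIN5, a lipid droplet coat protein, was at 1.46, 2.83 and 2.86 CPM in YTHDF3-ADAR polysomes and 0.311 to 0.552 CPM in the other lines (log2 2.18 ± 0.31 and 2.59 ± 0.32, edgeR adjusted p = 0.000239 and 6.89e-05). PLIN4 was higher by 1.24 and 0.79 and the lipase PNPLA3 by 0.43 and 0.48, while PLIN1 was lower than in YTHDF2-ADAR by 0.97. Without replicate 1 of YTHDF3-ADAR the calls were 5 higher and 1 lower against YTHDF1-ADAR and 5 higher and 2 lower against YTHDF2-ADAR.

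The genes whose levels followed each of the 8 most closely were found by Pearson r of log2 CPM over the 18 libraries, a description in which the lines and paired fractions recur. MID1, a microtubule-associated ubiquitin ligase, followed NPTX2 most closely (r = 0.979), at 193 CPM in YTHDF1-ADAR polysomes and 39.3 and 36.8 CPM in the other lines, with RALGPS2-AS1 and FZD1 next (0.973 and 0.969). TNFRSF10D and OXCT1 had each other among their 3 closest genes, with APOL2 first for OXCT1 (0.974), and SYK and ZNF738 were next, at 10.4 and 4.14 CPM in YTHDF2-ADAR polysomes. MAP7D2 was followed by ARHGEF16 (0.979), ADARB1 (0.972) and FAM221A (0.971), and TGFBR2 by CDYL2, ZNF462 and LMCD1 (0.984, 0.983 and 0.983). ADARB1 counts may include reads of the fusion, whose part was not tested.

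CRABP2 had its closest genes in ABHD14B, APEH and ORAI3 (r = 0.991, 0.990 and 0.989), with ABHD14B at 19.2 CPM in YTHDF1-ADAR and 62.7 CPM in YTHDF3-ADAR polysomes. G0S2 had PLPPR3, PPM1M and SPDYC (0.985, 0.985 and 0.984). IGF2 had the overlapping ENSG00000284779 (0.999), whose reads it may share, and then C22orf23 and ENSG00000278948 (0.966 and 0.962). None of these was a neighbour of its gene apart from ENSG00000284779.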

How the data were processed

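Per the submitters' processing notes, the authors aligned reads with STAR 2.7.7 to GRCh38, counted them with featureCounts 2.0.1 and used DESeq2. The deposited counts are whole reads per gene, with a strand setting that the labels do not give. In the deposited editing tables, per the file headers, each gene has a number of sites and a score for total and polysome RNA. Their adjusted p-value comes from a test of the authors that neither labels nor headers name. The column headed as log2 in the deposited tables was recomputed and is a natural log of an odds ratio. A deposited DESeq2 table, whose mean normalised signal was not used, gave gene symbols and biotypes only.

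From the counts, 1 row that names no human gene was left out. Genes were filtered with filterByExpr (minimum count 10), scaled by TMM and fitted over all 18 libraries in 6 groups of 3 with the quasi-likelihood test of edgeR 4.0.16 (R 4.3.3), adjusted by Benjamini-Hochberg at a threshold of 0.05. Values in CPM are counts divided by the library total times its TMM factor, and intervals of counting error were not added. The fit was tested on simulated data. No 2 libraries of a group agreed within sampling noise. The genes and lists were chosen with earlier results of these data known. Named are the 8 genes, the YTHDF genes and ADARB1, up to 4 other genes a list with the widest called polysome difference, the 3 genes of highest r over the libraries and the 3 neighbours on each side. Marker genes of other cell types are named from their lists. Some genes that the rule names are not reported here.

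Total and polysome libraries with the same number deviated together in all 9 pairs (r = 0.2 to 0.671), so the numbers pair them. Between lines the same-numbered polysome libraries had r from -0.364 to 0.304 and were not taken as pairs. The alternatives were DESeq2 1.42.0 as tool and as size factors, no normalization factors, no filter, only the libraries compared and the replicate block. Each library was also left out in turn and, chosen after seeing the data, YTHDF3-ADAR replicate 1 was left out of both fractions. Where polysome and total RNA were compared, the block was the same-numbered pair within a line. For polysome RNA between lines it was the replicate number.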

Additional observations from a re-analysis of the deposited data

How the results depend on the processing

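No called value of the 8 genes reversed under the alternatives run. For polysome RNA in YTHDF2-ADAR minus YTHDF1-ADAR, 631 genes were called, against 1027 with DESeq2, 2618 with only the libraries compared, 259 with the replicate block and 319 to 445 leaving out 1 library. YTHDF3-ADAR minus YTHDF1-ADAR called 6245 genes, against 2202 with only the libraries compared, 13010 without YTHDF3-ADAR replicate 1 and 2600 to 10911 leaving out 1 library. YTHDF3-ADAR minus YTHDF2-ADAR called 6727, against 2681, 13393 and 2765 to 11424. Of the 8 genes 4, 6 and 6 to 7 were called when 1 library was left out.

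For polysome minus total RNA the genes called were 5674, 4223 and 5392 in the 3 lines. Without normalization factors they were 12421 (10894 higher, 1527 lower, against 2481 and 3193), 10457 (9093 and 1364, against 1799 and 2424) and 8456 (6788 and 1668, against 2147 and 3245). With only the libraries compared, YTHDF2-ADAR had 7854 and YTHDF3-ADAR 219. The replicate block gave 9843, 8158 and 9030, and leaving out YTHDF3-ADAR replicate 1 gave 8168 in that line. Leaving out 1 library gave 3272 to 4445, 2235 to 3278 and 2827 to 7075. Of the 8 genes 0 were called in each line, against 2, 2 and 2 without normalization factors, 1 and 3 in YTHDF1-ADAR and YTHDF2-ADAR with only the libraries compared, 2, 3 and 5 with the replicate block, 1 (IGF2) without YTHDF3-ADAR replicate 1, and 0 to 1, 0 and 0 to 1 leaving out 1 library. Those single calls were NPTX2 without YTHDF1-ADAR total replicate 3 (log2 0.77, edgeR adjusted p = 0.0424) and IGF2 without YTHDF3-ADAR total replicate 1 (-1.78, adjusted p = 0.0117).

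The difference of polysome minus total RNA between lines called 0 genes. In YTHDF3-ADAR minus YTHDF1-ADAR it called 1 with DESeq2, 265 without YTHDF3-ADAR replicate 1 and 0 to 27 leaving out 1 library, and in YTHDF3-ADAR minus YTHDF2-ADAR 288 and 0 to 21. The cause of these changes was not tested. Counts near 10 a library limit TNFRSF10D in YTHDF2-ADAR.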
